A study of Mus musculus with 5 samples.

Results

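Oligodendrocytes rich in Ptgds RNA were compared with oligodendrocytes of the same sample that were poor in it. The cells came from 1 midbrain sample of the Nkx2-2Cre R26TrapC mouse line, which holds 327 of the 1473 cells of the series. Of these 327 cells, 245 had at least 500 CPM (the count over all reads of the cell, times 1e6) of Mog, a glycoprotein on the outer face of myelin, and were kept. They were chosen by their Ptgds CPM alone: the cells were ranked by it, and the 81 highest (Ptgds-high cells) were set against the 81 lowest (Ptgds-low cells), with the 83 in between given for reference (intermediate cells).

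Every cell compared carried both labelled alleles, Cre recombinase driven by Nkx2-2 and R26TrapC. Nkx2-2 is a homeobox gene of ventral neural progenitors and of the oligodendrocyte lineage, so the line samples cells with a history of that gene. The tissue was microdissected from 7 mice, all female and 3 months old, with no treatment labelled. Cells were sorted by fluorescence into plates and turned into libraries with Smart-seq2, which copies whole transcripts and attaches no molecular identifiers. The mice were pooled, in that no label ties a well to an animal, so each group of cells belongs to 1 sample and no test between the groups is given. Ptgds chose the groups, so every value from these cells is a description.

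Oligodendrocytes wrap axons in myelin, a compacted membrane of lipid and a small set of abundant proteins. Ptgds encodes lipocalin-type prostaglandin D synthase, a secreted enzyme that makes prostaglandin D and also carries lipophilic molecules. Atlases of single mouse oligodendrocytes divide the mature cells into states, of which one is known by Klk6, a secreted serine protease, and another by Ptgds itself. Before maturity the lineage passes through precursors, committed cells that express Gpr17, and newly formed cells that express Enpp6.

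The promoters of 3 genes on which the comparison turns are shown, because Opalin was among the genes most like Ptgds across cells and Klk6 among those least like it. Each runs from 250 bases before to 50 bases after the start that RefSeq gives on GRCm38.p6, on the strand of the gene. Capitals mark every match, on either strand, to the E-box CAGCTG, a motif of basic helix-loop-helix factors, or to the SOX cores ACAAAG and ACAAT. For Klk6 the first of 2 listed starts is shown. Ptgds is at chr2:25469700-25469999 on the minus strand, Opalin at chr19:41077064-41077363 on the minus strand and Klk6 at chr7:43824294-43824593 on the plus strand.
Ptgds: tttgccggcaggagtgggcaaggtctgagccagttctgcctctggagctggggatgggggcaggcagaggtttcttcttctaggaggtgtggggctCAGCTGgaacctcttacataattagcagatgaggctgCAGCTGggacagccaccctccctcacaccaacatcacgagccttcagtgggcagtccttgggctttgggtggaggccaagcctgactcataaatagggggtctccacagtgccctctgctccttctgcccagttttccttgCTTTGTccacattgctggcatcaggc
Opalin: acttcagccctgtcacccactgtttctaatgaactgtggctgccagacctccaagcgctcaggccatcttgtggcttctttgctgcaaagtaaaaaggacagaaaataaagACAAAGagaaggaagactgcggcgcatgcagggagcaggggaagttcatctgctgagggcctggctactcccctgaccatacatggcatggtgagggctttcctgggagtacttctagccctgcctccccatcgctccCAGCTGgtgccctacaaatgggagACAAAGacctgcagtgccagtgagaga
Klk6: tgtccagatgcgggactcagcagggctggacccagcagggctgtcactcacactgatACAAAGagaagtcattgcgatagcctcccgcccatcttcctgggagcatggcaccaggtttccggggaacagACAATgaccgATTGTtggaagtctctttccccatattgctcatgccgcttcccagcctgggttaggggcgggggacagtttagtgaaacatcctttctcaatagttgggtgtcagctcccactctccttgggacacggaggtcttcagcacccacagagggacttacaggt
No matches overlapped one another. Counting the start as 1, Ptgds had CAGCTG at -154 and -117, and ACAAAG on the other strand at 25. Opalin had ACAAAG at -139 and 24 and CAGCTG at -1. Klk6 had ACAAAG at -193, ACAAT at -121 and ACAAT on the other strand at -111, with 0 matches to CAGCTG in this window. The TATA box letters TATAAA had 0 matches in the 3 windows. Of 32851 promoters of the same length, 16.3% held CAGCTG, 18.7% ACAAAG, 31.0% ACAAT and 13.6% TATAAA. The matches are common and describe these letters only.

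Ptgds-high cells held between 26483 and 121602 CPM of Ptgds, with a median of 37978. Intermediate cells held 4819 to 26447 CPM (median 15875) and Ptgds-low cells 1.31 to 4652 CPM (median 112). The steps at the group edges were small: 26483 against 26447 CPM at the upper one and 4819 against 4652 CPM at the lower one. Ptgds-low cells spread over more than 3 powers of 10, and 39 of the 81 were below 100 CPM and 58 below 1000 CPM. The cells closest to the Mog limit stood at 601 CPM above it and 424 CPM below it. Ptgds reads made up 4.14% of all reads in Ptgds-high cells, 1.63% in intermediate cells and 0.0825% in Ptgds-low cells.

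**Figure D1:**
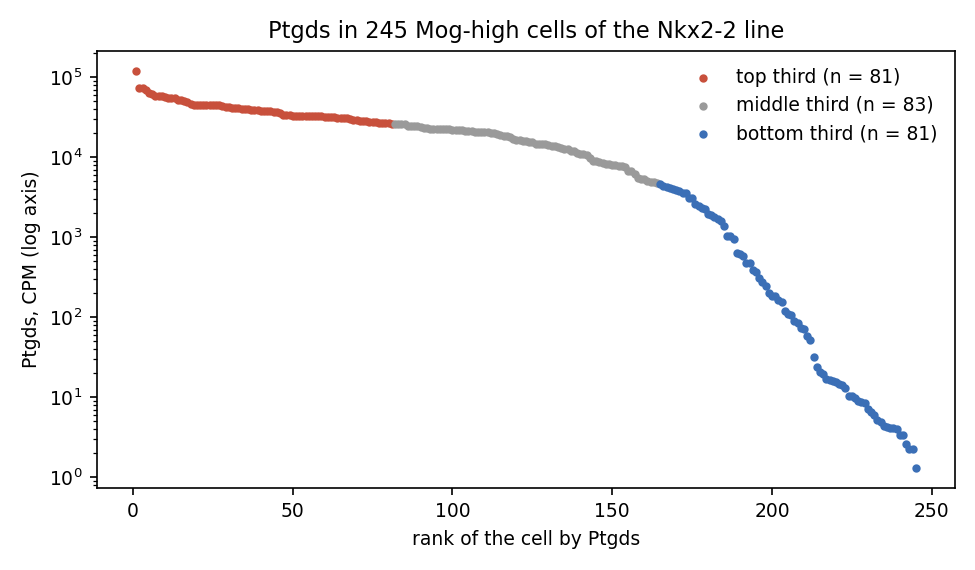
Ptgds in each of the 245 Mog-high cells (points), in CPM on a log axis, against the rank of the cell. The 81 Ptgds-high cells (red, top) and the 83 intermediate cells (grey, middle) lie at 4819 CPM or more on a slow slope, and the 81 Ptgds-low cells (blue, bottom) spread from 4652 down to 1.31 CPM.

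Depth moved with the groups. The median cell had 1037044 reads and 3814 detected genes in Ptgds-high cells, 1358063 and 4317 in intermediate cells, and 1586838 and 4819 in Ptgds-low cells. With every cell thinned to 108417 reads, the total of the shallowest cell, the medians were still 3027, 3332 and 3853 genes. The 82 cells with less Mog serve as a comparison: their median Ptgds was 17.7 CPM, Ptgds was read in 100% of them, and Mog in 92.7%. For Ptgds that median lies above the 10 CPM at which cells are counted below, so such a count does not separate low Ptgds from the level in those cells. In the midbrain sample of the Foxj1 line, sequenced from other mice, Ptgds was read in 12.8% of cells, at 9.84 CPM. By runs of 96 cell numbers, called blocks here, 4 blocks held at least 14 cells of both groups, and the last held 1 Ptgds-high and 7 Ptgds-low cells. No cell name was shared between samples. The median Ptgds by block ran from 8736 to 22907 CPM, and each ratio below is given with its range over the 4 filled blocks where it matters.

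Of 8113 genes with at least 10 CPM in either group, 641 (7.9%) were at least 2-fold higher in Ptgds-high cells and 976 (12%) at least 2-fold lower, 19.9% in all, from reads summed over the cells. With every cell thinned to equal depth the counts were 537 and 974, and with Ptgds left out of the read totals 725 and 900. The median log2 ratio over all 8113, Ptgds-high over Ptgds-low, was -0.05. A stricter reading asked for reads in at least 25% of the cells of the higher group and the same direction in every filled block. Of 5879 genes that could pass it, 135 (2.3%) were higher and 382 (6.5%) lower in Ptgds-high cells.

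The 5 genes that label this contrast did not move together. Ptgds ranked the cells. Apod, a lipocalin that carries lipids, was lower in Ptgds-high cells, against the label. It stood at 9.20, 5362 and 14159 CPM (lowest, median and highest cell) in Ptgds-high cells and at 1.09, 10510 and 34956 CPM in Ptgds-low cells. The groups overlapped, and the summed levels were 6286 CPM (exact 95% Poisson interval 6270 to 6302) and 12137 CPM (12118 to 12155). The log2 ratio was -0.95 (-1.21 to -0.37 by block). Here and below, Poisson intervals leave out the spread between cells, and no interval covers the spread between animals. Car2, the cytosolic carbonic anhydrase of oligodendrocytes, stood at 8922 CPM in Ptgds-high and 5913 CPM in Ptgds-low cells, 1.51-fold higher. Gatm, the first enzyme of creatine synthesis, stood at 4587 and 3442 CPM, 1.33-fold higher. Car2 and Gatm were each at 10 CPM or more in at least 79 of the 81 cells of both groups, a limit far below their medians. Car2 ran from 160 to 18971 CPM (median 7827) in Ptgds-high cells and from 1.64 to 17022 CPM (median 5050) in Ptgds-low cells. Gatm ran from 1088 to 11279 CPM (median 4384) and from 202 to 7416 CPM (median 3368), so both overlapped between the groups. Mcam, a cell adhesion molecule, was at 10 CPM or more in 51 Ptgds-high, 50 intermediate and 23 Ptgds-low cells, with summed levels of 212 and 116 CPM. Its single highest cell, at 1867 CPM, was a Ptgds-low cell. Of the 5, only Ptgds passed 2-fold.

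Across the 245 cells, the genes whose level followed Ptgds most closely by rank were Cd63 (Spearman 0.66), Opalin (0.65), Cd9 (0.63), Qdpr (0.63), Il33 (0.62), Gstp1 (0.61), Mal (0.60) and Sept4 (0.57). The copies Cd63.Ps and Cd9.Ps, at 0.65 and 0.62, can share reads with Cd63 and Cd9 and are uncertain. Inside the 81 Ptgds-high cells these relations were near 0 for Opalin (0.12), Cd9 (-0.07) and Il33 (0.07). Inside the intermediate cells they were 0.29, 0.36 and 0.30, and inside the Ptgds-low cells 0.60, 0.52 and 0.17. The cells share 1 sample and differ in depth, and the coefficients describe these cells only.

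Opalin, a membrane protein of the paranodal and inner loops of myelin, stood at 1.09, 1672 and 4578 CPM (lowest, median and highest) in Ptgds-high cells. In Ptgds-low cells it stood at 0, 7.09 and 3659 CPM. It passed 10 CPM in 80 of 81 Ptgds-high and 40 of 81 Ptgds-low cells, and its summed log2 ratio was 1.92 (1.31 to 3.18 by block). Ptgds-low cells thus fell into cells with much Opalin and cells with almost none. Cd9, a tetraspanin of the cell surface, had medians of 1088 and 161 CPM and a log2 ratio of 1.63. Cd63, a tetraspanin of late endosomes, passed 10 CPM in 78 Ptgds-high and 37 Ptgds-low cells, and was 4.97-fold higher. Mal, a proteolipid of myelin membranes, had summed levels of 10109 and 4505 CPM. Qdpr, which regenerates tetrahydrobiopterin, stood at 9847 and 4630 CPM, and Gstp1, a glutathione transferase, at 1074 and 355 CPM. Sept4, a septin, differed by less than 2-fold (7700 and 4324 CPM).

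Il33, a cytokine of the interleukin-1 family held in the nucleus, at chr19:29925114-29960718 on the plus strand of GRCm38, was read at level in most Ptgds-high cells and few Ptgds-low cells. It stood at 0, 857 and 3774 CPM (lowest, median and highest) in Ptgds-high cells and at 0, 0 and 818 CPM in Ptgds-low cells. It was at 10 CPM or more in 68 of 81 Ptgds-high cells (84.0%, exact 95% interval 74.1 to 91.2), 51 of 83 intermediate cells (61.4%) and 7 of 81 Ptgds-low cells (8.64%, 3.55 to 17.0). Thinned to equal depth, Il33 was read in 84.0% of Ptgds-high and 12.3% of Ptgds-low cells. Intermediate cells were divided, with some near 0 and others as high as any Ptgds-high cell. The summed levels were 1016 CPM (exact 95% Poisson interval 1010 to 1022) and 31.9 CPM (31.0 to 32.9), with a log2 ratio of 4.99 and a block range of 3.28 to 12.52.

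**Figure D2:**
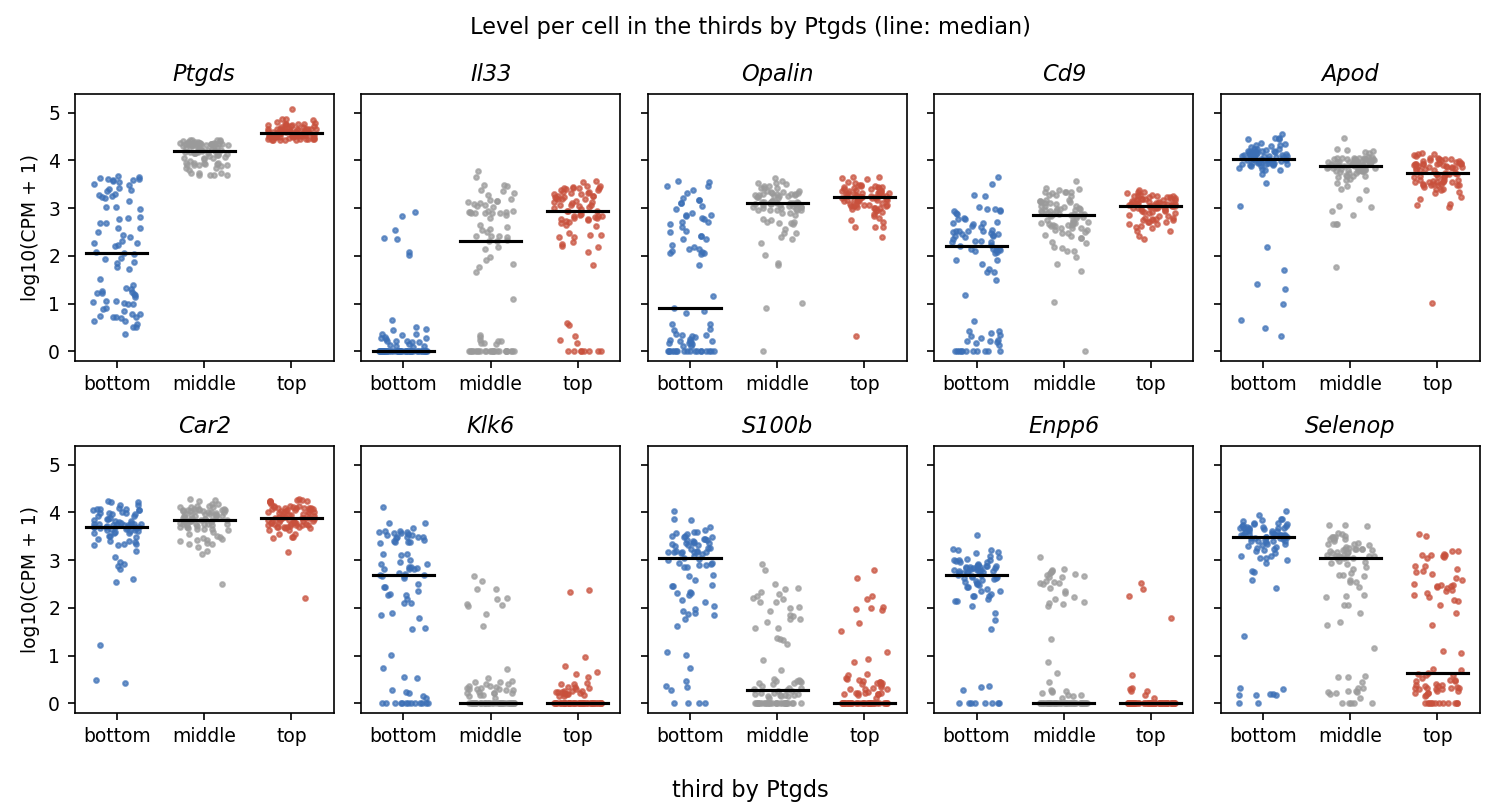
Level per cell, log10(CPM + 1), of 10 genes in Ptgds-low (bottom), intermediate (middle) and Ptgds-high (top) cells, where each point is 1 cell and the line is the median. Il33 and Opalin split the Ptgds-low cells from the rest in part, Apod and Car2 overlap across groups, and Klk6, S100b and Enpp6 are near 0 in nearly all Ptgds-high cells.

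By the stricter reading, 15 genes with the largest ratios were named on each side. Ptgds, which ranked the cells, and Il33 were among the higher ones. Adamts1, a secreted metalloprotease, was at 10 CPM or more in 30 Ptgds-high and 4 Ptgds-low cells (summed 109 and 1.78 CPM). Efemp1, a fibulin of the matrix, stood at 72.4 and 4.97 CPM, and Aebp1, a secreted collagen-binding protein, at 38.7 and 2.79 CPM. Wfdc18, a small secreted protein, reached 10 CPM in 30 Ptgds-high and 6 Ptgds-low cells (60.9 and 4.23 CPM). Intermediate cells were close to the Ptgds-high ones, at 41.8 CPM and with 24 of 83 cells at 10 CPM or more. Outside the Mog-high cells, Wfdc18 stood at 0.0261 CPM in the cells with less Mog and 0 CPM in the Foxj1 line midbrain. Pcsk2, a prohormone convertase, stood at 34.1 and 4.67 CPM.

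Apoe, the main lipid carrier of the brain, stood at 0, 681 and 12281 CPM (lowest, median and highest) in Ptgds-high cells and at 0, 2.21 and 2685 CPM in Ptgds-low cells. It passed 10 CPM in 62 and 33 cells, and the summed levels differed 9.53-fold, with a narrow block range of the log2 ratio, 3.03 to 3.59. Apoe stood far higher, at 9313 CPM, in the cells with less Mog. The remaining higher genes were low in level or present in a minority of cells. Rtn2, a reticulon, passed 10 CPM in 26 Ptgds-high, 12 intermediate and 0 Ptgds-low cells, with 73.6 CPM against 3 reads in all. Epas1, a hypoxia-inducible transcription factor, stood at 29.8 and 2.22 CPM, and Kif21b, a kinesin, at 41.9 and 3.76 CPM. Pvt1, a long noncoding RNA, stood at 34.6 and 4.87 CPM, Pnmal1 at 42.7 and 6.71 CPM, and Ccdc136 at 10.7 and 1.48 CPM. Junb, an AP-1 factor, is described with the immediate early genes.

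The genes lower in Ptgds-high cells included those of the Klk6 state. Klk6 stood at 0, 0 and 238 CPM (lowest, median and highest) in Ptgds-high cells and at 0, 486 and 13168 CPM in Ptgds-low cells. It was at 10 CPM or more in 2 of 81 Ptgds-high cells (2.47%, exact 95% interval 0.300 to 8.64), 11 of 83 intermediate cells (13.3%) and 59 of 81 Ptgds-low cells (72.8%, 61.8 to 82.1). Klk6 thus separated most cells of the 2 groups, and the intermediate cells lay closer to the Ptgds-high ones. The summed levels were 7.79 CPM (exact 95% Poisson interval 7.24 to 8.36) and 1512 CPM (1506 to 1519), 194-fold apart, with a log2 ratio of -7.60 (-12.63 to -6.57 by block). After thinning, Klk6 was read in 6.17% of Ptgds-high and 75.3% of Ptgds-low cells.

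Of 8 genes listed for that state, 7 were in the table. Among these, 5 were at least 2-fold lower and 1 at least 2-fold higher in Ptgds-high cells, with a median log2 ratio of -4.32. For this list and the next, the shares over all tested genes were 12% lower and 7.9% higher. Anxa5, a calcium-dependent phospholipid-binding protein, had medians of 0.642 and 403 CPM. Hopx, an atypical homeodomain protein, passed 10 CPM in 0 Ptgds-high, 3 intermediate and 44 Ptgds-low cells, from 7 reads against 101 CPM. Nkx2-9, a homeobox factor related to Nkx2-2, passed it in 0, 1 and 31 cells, from 2 reads against 95.3 CPM. Cd59a, an inhibitor of complement lysis, stood at 35.0 and 284 CPM, and Gjb1, a connexin of myelin, at 583 and 1038 CPM, which is less than 2-fold. The member that went the other way was Wfdc18.

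The counterpart list, 10 genes of the Ptgds state, was split: 3 were at least 2-fold higher in Ptgds-high cells (Il33, Jph4 and Ptgds, which ranked the cells) and 3 at least 2-fold lower (S100b, Anln and Hapln2). Jph4, a junctophilin that couples membranes to internal calcium stores, stood at 81.9 and 35.7 CPM. S100b, a calcium-binding protein, stood at 0, 0 and 635 CPM (lowest, median and highest) in Ptgds-high cells and at 0, 1101 and 10590 CPM in Ptgds-low cells. It passed 10 CPM in 11 and 71 cells, and the summed levels were 79.2-fold apart. Anln, an actin-binding protein, had medians of 156 and 916 CPM. Hapln2, a link protein of the node matrix, had medians of 506 and 1319 CPM, and its log2 ratio went from -1.24 to -0.47 without the Ptgds-low cells at 100 CPM or more of Klk6. Trf, the iron carrier transferrin, was, like Apod, lower in Ptgds-high cells (2325 and 3572 CPM, log2 -0.62), and Grm3, a glutamate receptor, was within 2-fold (333 and 259 CPM).

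**Figure D3:**
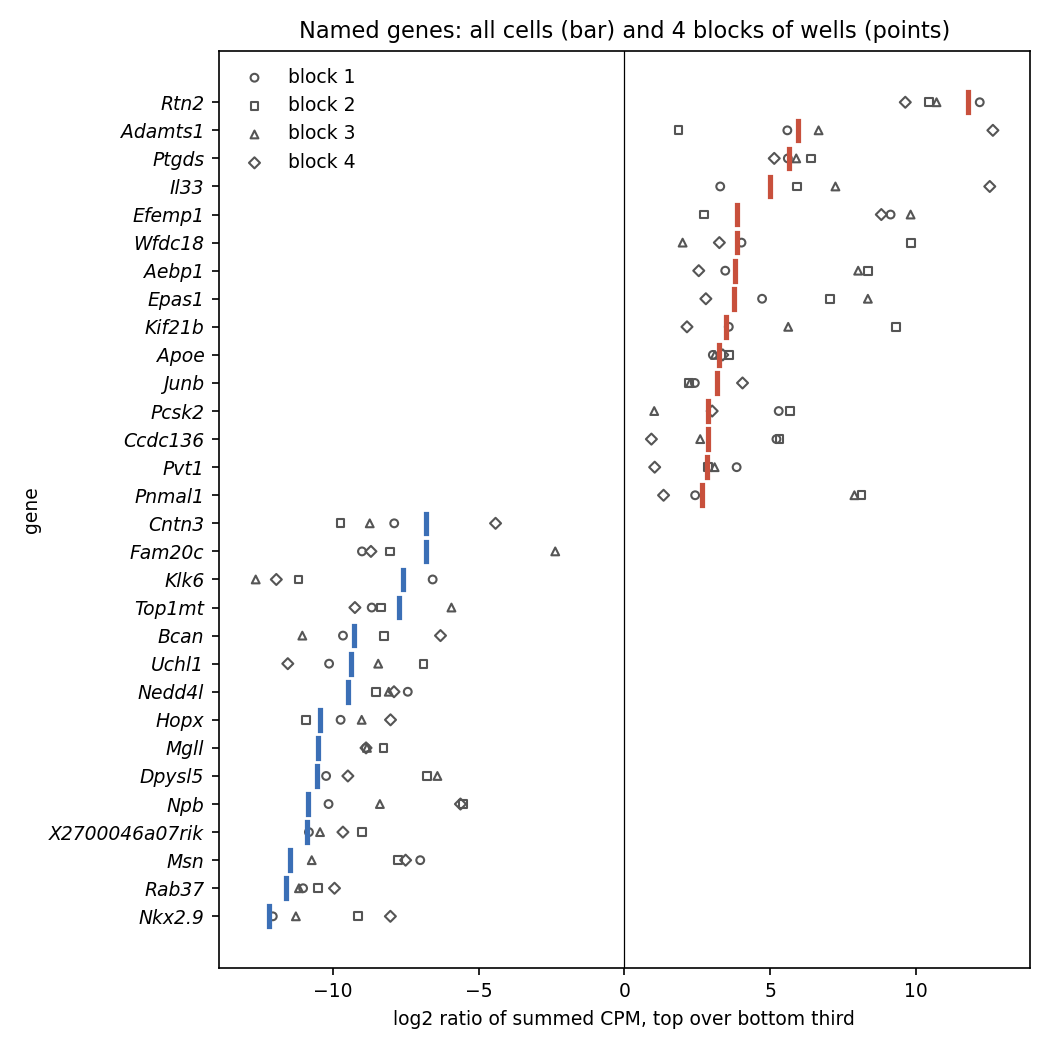
Log2 ratio of summed CPM, Ptgds-high over Ptgds-low, for the 15 genes with the largest and the 15 with the smallest ratios by the stricter reading: bars use all cells and open symbols each of 4 blocks of wells. A group with no read of a gene in a block enters at a floor of 3 reads, and every symbol lies on the same side of 0 as its bar, as the choice of genes requires.

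Other genes with the smallest ratios were present in part of the Ptgds-low cells and nearly unread in Ptgds-high cells. Rab37, a small GTPase of secretory vesicles, passed 10 CPM in 33 Ptgds-low cells and in 0 of the Ptgds-high and intermediate cells (130 against 0.0415 CPM). Uchl1, a deubiquitinase best known from neurons, passed it in 42 Ptgds-low and 0 Ptgds-high cells (179 against 0.270 CPM). Mgll, the lipase that breaks down monoacylglycerols including an endocannabinoid, passed it in 24 and 0 cells (60.05 against 0.0415 CPM). Msn (moesin, which ties actin to the membrane), Npb (neuropeptide B), Dpysl5 (a collapsin response protein), Nedd4l (a ubiquitin ligase) and X2700046a07rik had 3 reads or fewer in all Ptgds-high cells and passed 10 CPM in 14 to 34 Ptgds-low cells. Top1mt (a mitochondrial topoisomerase), Fam20c (a secretory pathway kinase) and Cntn3 (a contactin) stood at 37.3, 32.3 and 27.5 CPM in Ptgds-low cells and below 1 CPM in Ptgds-high cells. Bcan, the proteoglycan brevican, differed from these. It reached 154 CPM in Ptgds-low cells from only 10 cells at 10 CPM or more, the highest at 4669 CPM. Its log2 ratio went from -9.27 to -3.24 without the cells at 10 CPM or more of Gpr17. Without the Ptgds-low cells at 100 CPM or more of Klk6 it was -10.77.

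The genes least like Ptgds by rank over the 245 cells were Enpp6 (-0.72), S100b (-0.68), Selenop (-0.65), Mmd2 (-0.62) and Klk6 (-0.62). Enpp6, a choline phosphodiesterase used as a marker of newly formed oligodendrocytes, stood at 0, 0 and 329 CPM (lowest, median and highest) in Ptgds-high cells and at 0, 486 and 3300 CPM in Ptgds-low cells. It passed 10 CPM in 4 of 81, 26 of 83 and 70 of 81 cells in order of falling Ptgds. In Ptgds-low cells that is 86.4% (exact 95% interval 77.0 to 93.0), more than for Klk6. Selenop, a secreted selenium carrier, was graded over the 3 groups, with medians of 3.38, 1119 and 2999 CPM. Mmd2, a membrane protein of the progestin and adipoQ receptor family, passed 10 CPM in 6, 24 and 66 cells.

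Ptgds-low cells were not of 1 kind. After the values were seen, they were divided by Klk6 at 100 CPM and by Gpr17 at 10 CPM. Klk6 reached 100 CPM in 54 of the 81, against 9 intermediate and 2 Ptgds-high cells. These 54 cells held the lowest Ptgds, with a median of 16.8 CPM, near the 17.7 CPM of the cells with less Mog. Their medians were 12619 CPM for Apod, 1753 for S100b, 889 for Anxa5, 74.0 for Hopx and 1.13 for Opalin. All 31 Ptgds-low cells with Nkx2-9 at 10 CPM or more were among them. The other 27 cells had a median Ptgds of 1675 CPM, with medians of 8732 CPM for Apod, 94.6 for S100b, 0.485 for Anxa5, 0 for Hopx and 624 for Opalin.

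Gpr17, the receptor of committed oligodendrocytes, reached 10 CPM in 10 Ptgds-low cells, of which 1 also had Klk6 at 100 CPM, and in 8 intermediate and 6 Ptgds-high cells. The levels were unlike: the highest Ptgds-low cell stood at 6335 CPM, and the highest intermediate and Ptgds-high cells at 169 and 149 CPM. The 10 Ptgds-low cells had medians of 1725 CPM for Ptgds, 1571 for Opalin, 1117 for Cntn1, an adhesion molecule of axon-glia contacts, and 3800 for Mog. They had little Apod (median 21.9 CPM), Trf (252 CPM) or Car2 (537 CPM), and the most detected genes of these subsets, with a median of 6620.5. Whether such wells held more than 1 cell was not tested. The remaining 18 Ptgds-low cells, with neither gene, had medians of 1780 CPM for Ptgds, 10438 for Apod and 533 for Opalin.

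**Figure D4:**
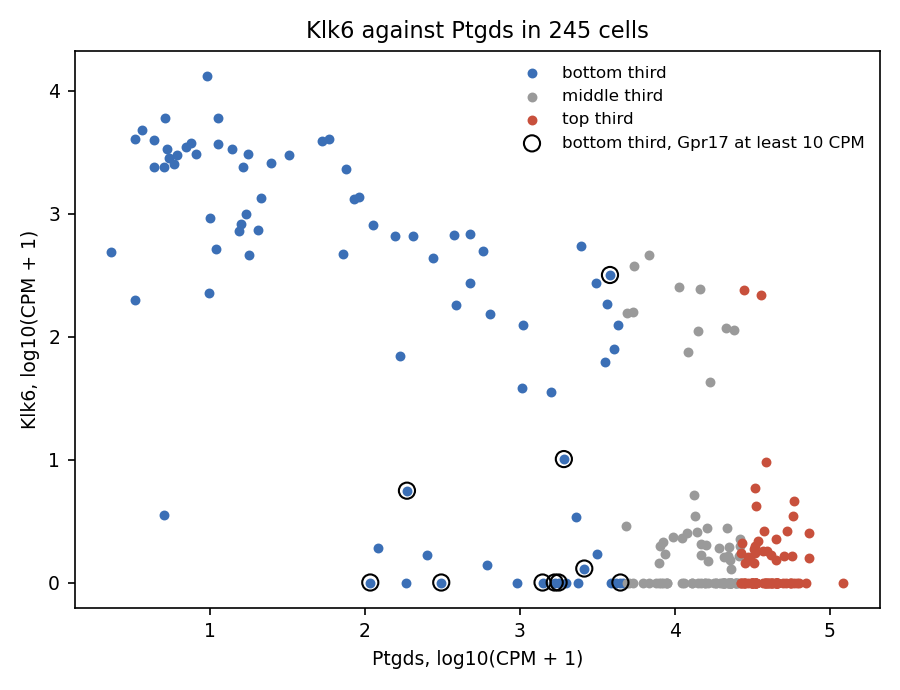
Klk6 against Ptgds in the 245 Mog-high cells, both as log10(CPM + 1), with 1 point per cell coloured by group and rings around the 10 Ptgds-low cells with Gpr17 at 10 CPM or more. High Klk6 lies at low Ptgds, and 9 of the 10 ringed cells have Klk6 below 100 CPM. Ptgds in the 10 ringed cells runs from 107 to 4445 CPM.

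Klk6 and Il33 reached 100 CPM in 65 and 119 of the 245 cells, with 9 in both. Both genes differ between the groups, so a small overlap over all cells is built in. Among Ptgds-low cells 54 had Klk6, 7 had Il33 and 4 had both. The counts were 9, 45 and 3 among intermediate cells, and 2, 67 and 2 among Ptgds-high cells. Within the 81 Ptgds-low cells, Ptgds ranked against Klk6 (-0.73), S100b (-0.80) and Apod (-0.54), while Klk6 ranked with S100b (0.83), Anxa5 (0.81) and Apod (0.70). Enpp6 followed Klk6 only loosely inside the Ptgds-low cells (0.16), but over all 245 cells the coefficient was 0.53. Enpp6 passed 10 CPM in 51 of the 54 Ptgds-low cells with Klk6 (median 580 CPM) and in 19 of the other 27 (median 271 CPM). Inside the 81 Ptgds-high cells the coefficients with Ptgds were -0.02 for Klk6, 0.03 for S100b and 0.01 for Apod.

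The ratios were also taken without the 54 Ptgds-low cells with Klk6 at 100 CPM. This cut, made after the values were seen, also removed cells with little Ptgds (median 16.8 CPM). The log2 ratio of Ptgds itself went from 5.65 to 4.56, so smaller ratios for genes that rank with Klk6 are partly built in. The Apod log2 ratio went from -0.95 to -0.12, that of Anxa5 from -4.32 to -1.32, of Opalin from 1.92 to 0.70 and of Cd9 from 1.63 to 0.61. Mcam went from 0.87 to -0.43. The ratios of Enpp6 (-5.46), Mmd2 (-4.24), Il33 (4.06) and Apoe (3.92) stayed past 2-fold against the other 27 cells. So did S100b (-3.88), Selenop (-1.91), Mal (1.04) and Cd63 (1.62). Without the Gpr17 cells instead, Mcam stood at 2.54, Opalin at 2.78 and Cd9 at 2.61, each larger than with them.

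Genes of earlier lineage stages were mostly lower in Ptgds-high cells. Of 10 tested genes of committed and newly formed cells, 8 were at least 2-fold lower in Ptgds-high cells and 0 higher. All tested genes gave 12% lower and 7.9% higher. The list's median log2 ratio was -2.97. Several of its genes were read in very few cells: Bmp4, a secreted signal, passed 10 CPM in 1 Ptgds-low cell, Neu4, a sialidase, in 2, and Cemip2 in 3. Tcf7l2, a Wnt pathway factor of the switch to myelination, had summed levels of 67.6 and 174 CPM but passed 10 CPM in 33 Ptgds-high and 25 Ptgds-low cells. Without the cells at 10 CPM or more of Gpr17, which is itself on the list, the list's median was 0.53 and Tcf7l2 stood at 1.27, while Rras2, a small GTPase, stood at -2.04 after -5.71 with them. Of 12 early myelinating genes, 2 were higher and 6 lower, with a median of -1.02 that became 0.48 without those cells. Fyn, a kinase that acts early in myelination, went from -2.69 to -0.07, and Enpp6 from -5.46 to -5.28. Of 11 precursor markers in the table, 2 reached 10 CPM, and both were at least 2-fold lower in Ptgds-high cells: Serpine2, a protease inhibitor (7.95 and 30.6 CPM), and Matn4, a matrilin (4.13 and 10.5 CPM). The sum of the list in a cell reached 293 CPM in Ptgds-high and 1694 CPM in Ptgds-low cells, while Pdgfra, the receptor that defines precursors, stood at 0.104 and 0.0924 CPM.

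Of 32 tested myelin genes, 3 were at least 2-fold higher in Ptgds-high cells (Opalin, Mal and Qdpr), 1 lower (Hapln2) and 28 within 2-fold, with a median log2 ratio of -0.09. Of all tested genes 19.9% passed 2-fold. Mbp, myelin basic protein, stood at 11185 and 13060 CPM and passed 10 CPM in every cell of both groups. Mog, which selected the cells, had medians of 3455 and 3610 CPM. Cnp, the cyclic nucleotide phosphodiesterase of myelin, had a log2 ratio of 0.03, and Cldn11, its tight junction claudin, -0.08. Genes within 2-fold but lower in Ptgds-high cells in every filled block included Mag, an adhesion protein of the inner myelin layer (-0.55), and Ugt8a, the galactosylceramide synthase (-0.79). Cryab, a small heat shock protein, was higher (0.71).

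Around Ptgds, the prostaglandin pathway was sparse. Of 31 genes listed, 18 were in the table and 7 reached 10 CPM in either group. Besides Ptgds, only Pla2g4a of these passed 2-fold, as 19.9% of all tested genes did. Pla2g4a, the cytosolic phospholipase that frees arachidonic acid, passed 10 CPM in 6 Ptgds-high and 38 Ptgds-low cells (15.6 and 89.1 CPM, log2 -2.52). The synthases of prostaglandin E, Ptges2 (9.18 and 16.1 CPM) and Ptges3 (72.7 and 63.3 CPM), were within 2-fold. Hpgds, the haematopoietic synthase of the same product as Ptgds, stood at 0.478 and 0.0142 CPM. Ptgdr2, one of the receptors of prostaglandin D, was read once in Ptgds-high cells and in no Ptgds-low cell, and Hpgd, which inactivates prostaglandins, had 0 reads in both groups. Of the 5 tested lipocalins and apolipoproteins, 1 was Ptgds, which ranked the cells, and of the others Apoe and Clu were at least 2-fold higher and 0 lower. Clu, the secreted chaperone clusterin, passed 10 CPM in 19 Ptgds-high and 21 Ptgds-low cells, so its summed difference (103 and 45.3 CPM) did not come with more cells, and without cells at 100 CPM or more of Fos its log2 ratio went from 1.18 to 0.75.

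Among lipid synthesis genes the share within 2-fold was near that of all tested genes, of which 19.9% passed it. Of 22 tested cholesterol synthesis genes, 18 were within 2-fold, 0 higher and 4 lower in Ptgds-high cells, and the median log2 ratio was -0.32. The lower ones included Sqle, squalene epoxidase (97.7 and 245 CPM), Lss, lanosterol synthase (23.7 and 52.9 CPM), and Hsd17b7 (20.9 and 65.0 CPM). Without the Gpr17 cells Sqle stood at -0.82 and Hsd17b7 at -0.65, and without the Klk6 cells at -1.80 and -2.34. Of 25 fatty acid and galactolipid genes, 21 were within 2-fold, 2 higher and 2 lower, with a median of -0.16. The higher ones were Fads1, a desaturase (108 and 39.0 CPM), and Dgat2, which makes triacylglycerol (115 and 47.9 CPM). Without the Klk6 cells neither passed 2-fold: the log2 ratio of Fads1 went from 1.47 to 0.15 and that of Dgat2 from 1.26 to -0.04. Without the Gpr17 cells instead, both were larger, with Fads1 at 3.83 and Dgat2 at 4.12. The lower ones were the elongases Elovl7 (167 and 450 CPM) and Elovl1 (508 and 1018 CPM). Scd2, the main desaturase of myelin lipid, was within 2-fold, at 3211 and 3223 CPM.

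Of 28 tested cytoskeletal genes, 8 were at least 2-fold lower in Ptgds-high cells and 0 higher, where all tested genes gave 12% lower and 7.9% higher. Tubb3, a tubulin best known from neurons, passed 10 CPM in 9 Ptgds-high and 47 Ptgds-low cells (18.2 and 233 CPM). Tubb2b was nearly unread in Ptgds-high cells (0.0623 CPM) and passed 10 CPM in 14 Ptgds-low cells. Tppp3, a tubulin polymerisation protein, had medians of 247 and 1035 CPM, Map1b, a microtubule-associated protein, 128 and 429.5 CPM, and Gsn, the actin-severing protein gelsolin, 1364 and 3509 CPM. Without the Klk6 cells the log2 ratio of Tppp3 went from -2.02 to -0.69. The abundant Tubb4a, the oligodendrocyte tubulin, was within 2-fold (13784 and 13021 CPM).

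Of 20 tested transcription factors of the lineage, 1 was at least 2-fold higher in Ptgds-high cells, Zfp488, a zinc finger repressor that promotes oligodendrocyte differentiation (86.1 and 39.3 CPM, log2 1.13), and 0 were lower. All tested genes gave 7.9% higher and 12% lower. Without the Klk6 cells Zfp488 stood at 0.26. Olig1 stood at 1678 and 1478 CPM, Sox10 at 291 and 248 CPM, Olig2 at 156 and 89.8 CPM and Myrf, the activator of myelin genes, at 139 and 161 CPM. Nkx2-2, whose Cre labelled the cells, stood at 20.3 and 11.9 CPM and passed 10 CPM in 21 and 18 cells. The study's title names Sox9 and the Nfi factors. Of 6 tested SOX and NFI genes, 0 passed 2-fold: Nfia stood at 147 and 101 CPM, Nfib at 41.3 and 61.1 CPM, and the levels of Nfix were 122 and 200.04 CPM, while Sox9 was low in both (2.22 and 3.20 CPM). Of 30 positional factors in the table, such as Otx, En, Pax and Hox genes, none reached 10 CPM in either group.

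**Figure D5:**
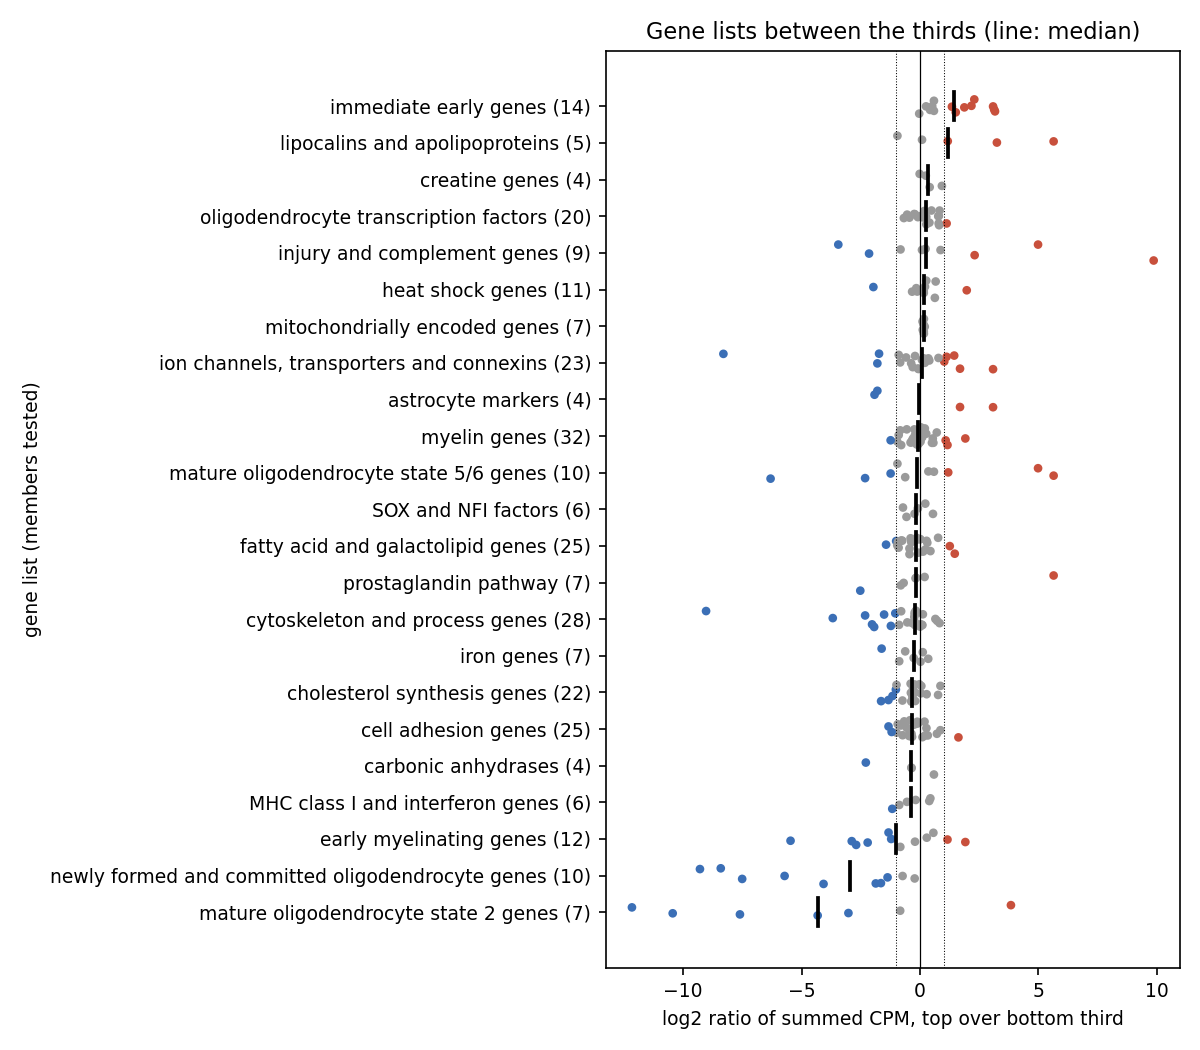
Log2 ratio of summed CPM, Ptgds-high over Ptgds-low, for each tested member of 23 gene lists (points: red at least 2-fold higher, blue at least 2-fold lower, grey within 2-fold), with the list's median as a black bar and the number tested in brackets. Myelin genes centre near 0 (median -0.09), the Klk6 state list lies lowest (median -4.32), and the immediate early genes lie highest (median 1.43).

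Immediate early genes, which are induced within minutes of a stimulus, differed in summed reads, and most Fos reads came from a few cells. Of 14 tested, 8 were at least 2-fold higher and 0 lower by summed reads, with a median log2 ratio of 1.43. The shares over all tested genes were 7.9% higher and 12% lower. Fos stood at 2048 and 453 CPM in sum, but its median cell stood at 2.87 and 3.25 CPM, and 30 and 34 cells reached 100 CPM. The 10 highest cells gave 87.6% of the Fos reads in Ptgds-high cells and 60.4% in Ptgds-low cells. Without cells at 100 CPM or more of Fos, which is itself on the list, the list's median was -0.06. Fos went from 2.18 to -0.24 and Junb from 3.17 to -0.57, while Il33 stood at 8.27 and Klk6 at -7.91. Cells were removed by a member of the list, so a fall of the list is partly built in. Of 11 heat shock genes, 1 was higher (Hspa1a) and 1 lower (Bag3), shares near those of all tested genes.

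Markers of other cell types were read unevenly over cells. Microglia, endothelial and pericyte, smooth muscle and fibroblast markers together were below 50 CPM in 62 of 81 Ptgds-high and 44 of 81 Ptgds-low cells, so more Ptgds-low cells held 50 CPM or more. Among only the 62 and 44 cells below it, 965 genes were at least 2-fold higher and 1211 lower in Ptgds-high cells. Of 9 microglia markers in the table, 6 had 0 reads in Ptgds-high and 2 in Ptgds-low cells, including C1qa in both. Their sum in a cell reached at most 283 CPM in Ptgds-high and 207 CPM in Ptgds-low cells. All 3 endothelial markers in the table had 0 reads in Ptgds-high cells, and their sum was 0.831 CPM in Ptgds-low cells. The 8 markers of pericytes, smooth muscle and fibroblasts summed to 19.6 and 35.4 CPM, with highest cells at 380 and 237 CPM. Of 12 astrocyte markers, 4 reached 10 CPM in either group. Of these, 2 were at least 2-fold higher in Ptgds-high cells (Slc1a2 and Atp1b2) and 2 lower (Aldoc and Slc1a3). All tested genes gave 7.9% higher and 12% lower. The sum of the 12 markers per cell had medians of 7.71 and 125 CPM and reached 713 and 798 CPM. The 10 ependymal markers summed to 46.4 and 24.6 CPM, with the highest cell at 338 CPM among Ptgds-high, 2250 CPM among intermediate and 970.4 CPM among Ptgds-low cells. Foxj1, their defining factor, passed 10 CPM in 26 Ptgds-high and 13 Ptgds-low cells (28.1 and 6.59 CPM). Their part in the other differences was not tested. Of 5 Schwann cell markers in the table, Prx and Egfl8 had 0 reads in both groups, while Pmp22, a membrane protein that oligodendrocytes also make, stood at 347 and 1304 CPM. Of 10 neuronal markers in the table only Syp, a synaptic vesicle protein, reached 10 CPM (15.4 and 5.51 CPM), and of 6 choroid plexus markers none did.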

How the data were processed

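The 2 deposited tables were used. One holds raw read counts as the authors deposited them, with genes in rows and wells in columns. The other table, of log2 values, was deposited after division of each cell by its own size factor and addition of 1 (checked to within 0.01), and served only as an alternative scaling. STAR 2.3.1o, Seurat 3 and mm10 are named in the submitters' processing notes. The counting tool and the annotation are not given in the sources used here. The Nkx2-2 line's columns were assigned by the start of their names, and 485 columns whose names matched no sample title were not used. Of 16347 genes, those with at least 10 CPM in either group entered the ratios.

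CPM is the count over the column sum, times 1e6, for single cells, and summed counts over summed column totals for groups. Ratios use a floor of 3 reads for a count of 0. Intervals (exact Poisson for sums, Clopper-Pearson for shares, 95%) cover counting error only, not the spread between animals. Copies of 1 molecule cannot be recognised in these libraries. Reads are therefore not independent counts, and the Poisson intervals can be too narrow even for counting error. With 1 sample there is no test. No doublet caller was run on the sorted wells. As 1 alternative, the 2% of cells richest in genes were dropped. The script was tested on simulated data. Blocks are runs of 96 cell numbers in the column names, and the labels do not say that a block is a plate.

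Genes were named by rule: the 5 labelling genes; the 15 largest and 15 smallest ratios among genes read in 25% of the higher group, past 2-fold and in 1 direction in each block with at least 5 cells of both groups; the 10 genes most and 5 least like Ptgds by Spearman correlation; and up to 8 members of each list (4 by level, 4 by ratio). Other list members given were chosen after their values were seen, and some genes are not reported here. The members and lists were chosen with earlier results of these data known. Gene positions and promoters come from GENCODE vM21 (GRCm38) and RefSeq (GRCm38.p6). Python 3.11.15, numpy 2.4.6, pandas 2.3.3, scipy 1.17.1 and matplotlib 3.10.9 were used.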

Additional observations from a re-analysis of the deposited data

How the results depend on the processing

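Beside the reported setting, 22 others were run, 19 planned and 3 added after the data were seen. No paired analysis was possible because each group is cells of 1 sample and no test was made. Leaving out each block in turn gave 664 to 815 genes higher in Ptgds-high cells and 968 to 1207 lower. With a minimum of 1 CPM, 1428 genes were higher and 2306 lower, and with 50 CPM 113 and 244. Comparing the upper and lower 122 cells gave 606 lower genes. Without cells with 50 CPM or more of microglia, endothelial and mural markers 965 genes were higher, and without the Ptgds-low cells at 100 CPM or more of Klk6 1022.

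Of 96 named genes past 2-fold, 51 stayed past it in the same direction under every setting, 30 came inside 2-fold under at least 1 setting and 15 changed sign under at least 1. The 96 include Ptgds, which ranked the cells, and the genes named for the largest ratios in 1 direction in every filled block. For these, staying past 2-fold is partly built in. Ranking cells inside blocks gave Atp1b2 a log2 ratio of -0.34. The upper and lower 122 cells gave Atp1b2 -0.09 and Hsd17b7 0.07. Bmp4, read at 10 CPM or more in 1 Ptgds-low cell, stood at 0.54 with Mog at or above 1000 CPM and, leaving out each block in turn, between -9.11 and 0.15, the latter without block 3. Without Gpr17 cells Bmp4 stood at 0.46, Cemip2 at 2.04, Ctps at 0.55, H2-K1 at 2.61, Neu4 at 0.82, Slc1a1 at 1.36 and Tcf7l2 at 1.27, and the medians of the early myelinating and newly formed lists at 0.48 and 0.53. Without Klk6 cells Dgat2 stood at -0.04. Without cells at 100 CPM or more of Fos, Egr1 stood at -1.44, Fos at -0.24, Fosb at -4.94, Hspa1a at -0.53, Junb at -0.57 and Neu4 at 0.72, and the immediate early median at -0.06. The causes were not tested. With no molecular identifiers and 1 pooled sample, the spread between animals is unknown.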

Other observations

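Among 23 tested ion channels, transporters and connexins, 5 were at least 2-fold higher in Ptgds-high cells and 3 lower. The shares over all tested genes, 7.9% higher and 12% lower, are the background for each list under this heading. Kcna6, a voltage-gated potassium channel, passed 10 CPM in 54 Ptgds-high and 42 Ptgds-low cells (121 and 55.5 CPM), and Grm7, a glutamate receptor, in 24 and 13 cells (80.4 and 29.4 CPM). Slc1a3, a glutamate transporter best known from astrocytes, passed it in 11 and 35 cells (22.5 and 78.1 CPM), and Clcn2, a chloride channel of glia, in 13 and 30 cells (14.7 and 48.6 CPM). Without the Klk6 cells the log2 ratio of Clcn2 went from -1.72 to -0.44. Kcnj10, the main inward rectifier of oligodendrocytes, was within 2-fold (460 and 479 CPM). Of 25 adhesion genes, Cd9 was higher, and Sema4d, a semaphorin of oligodendrocytes (229 and 573 CPM), and Ephb1, an ephrin receptor (97.4 and 223 CPM), were lower. The log2 ratio of Sema4d went from -1.33 to -0.11 without the Gpr17 cells and to -2.32 without the Klk6 cells. That of Ephb1 went from -1.19 to -0.95 without the Klk6 cells and to -1.30 without the Gpr17 cells. Cntn1 had nearly equal sums (180 and 167 CPM) from very different cells: it passed 10 CPM in 53 Ptgds-high cells and in 10 Ptgds-low cells, 8 of which were Gpr17 cells.

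Of 7 tested iron genes, 0 were higher and 1 lower (Slc11a2, an iron importer, 12.8 and 39.3 CPM), and Fth1, the heavy chain of ferritin, stood at 15605 and 18710 CPM. Of 6 tested genes of antigen presentation and interferon response, H2-K1, a class I molecule, was lower (65.3 and 147 CPM), although it passed 10 CPM in 21 Ptgds-high and 15 Ptgds-low cells. Without the Gpr17 cells its log2 ratio turned from -1.17 to 2.61, and without the Klk6 cells it stood at -2.60. Of 9 tested injury and complement genes, 3 were at least 2-fold higher in Ptgds-high cells (Il33, Cd63 and Socs3) and 2 lower (Serpina3n and Cdkn1a), with a median log2 ratio of 0.24. Socs3, an inhibitor of cytokine signalling, passed 10 CPM in 3 Ptgds-high cells and 0 Ptgds-low cells. Cdkn1a, a cell cycle inhibitor, stood at 12.7 and 56.4 CPM. Serpina3n, a protease inhibitor of reactive glia, passed 10 CPM in 2 Ptgds-high and 17 Ptgds-low cells (2.41 and 26.2 CPM), and 14 of the 17 were Klk6 cells. Ckb, the brain creatine kinase, was within 2-fold but had medians of 2577 and 1275 CPM. The 7 mitochondrially encoded genes in the table were all within 2-fold, with a median log2 ratio of 0.16.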
